A study of Mus musculus with 48 samples.

Results

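The carboxylesterases described here are 10 mouse genes of the Ces family, Ces1c, Ces1d, Ces1e, Ces1f, Ces1g, Ces2a, Ces2c, Ces2e, Ces3a and Ces3b, out of 20 carboxylesterase genes and 46517 genes in the table. They were selected by name, from their levels in the 5 sample groups of this series. Their levels and the differences between groups are therefore given as a description, without p-values. Fold changes, standard errors and counts of calls come from fits over all genes, and for these 10 genes they support nothing beyond the values themselves. Of the family genes outside the selection, Ces1b (88 to 277 TPM in livers) and Ces2g (81 to 96 TPM) were more abundant than the least abundant selected gene, Ces2c (31 to 53 TPM), where TPM is a level scaled to the length of the gene and to the size of the library.

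Carboxylesterases are serine hydrolases of the endoplasmic reticulum that cleave esters, amides and thioesters, and in the liver they hydrolyze ester drugs and prodrugs, insecticides and neutral lipids. The Ces1 subfamily holds the plasma carboxylesterase Ces1c, which mouse liver secretes into the blood, and the triacylglycerol hydrolases Ces1d and Ces1f, which mobilize stored lipid for the assembly of very low density lipoprotein. Ces1e is egasyn, which retains beta-glucuronidase in the endoplasmic reticulum, and Ces1g takes part in hepatic lipid metabolism. The Ces2 enzymes prefer substrates with a large alcohol group, Ces2a hydrolyzes acylglycerols, and Ces2c is known as an acylcarnitine hydrolase. Ces3a and Ces3b are a pair of closely related liver enzymes.

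Mouse liver spheroids were transplanted into the anterior chamber of the eye, where they engrafted on the iris, and RNA was sequenced to ask how engrafted hepatocytes compare with the liver. There were 5 explants, each a graft with the iris around it taken at 2 months post-tx and numbered 1, 2, 4, 5 and 6, and 3 naïve irises. The other groups were 3 livers, 3 hepatocyte-enriched preparations from perfused livers, and 2 samples of spheroids kept in vitro. Each sample was sequenced by Smart-seq3 as 3 technical libraries. All groups share the strain C57BL/6N and the genotype WT Albino in the labels, and the study used adult mice of both sexes. In all 16 samples here the Y-linked Ddx3y was at 35 to 86 TPM and Xist at 0 to 0.33. Explants, hepatocyte preparations and spheroids all derive from primary liver cells freed with collagenase, and spheroids were cultured with dexamethasone, a ligand of the glucocorticoid receptor. The labels give no day of culture for the spheroids and do not say which samples come from separate animals, nor whether eyes or animals were pooled, so p-values measure the spread between these samples. In bulk RNA, fewer hepatocytes and less RNA per hepatocyte cannot be told apart.

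All 20 family genes lie on chromosome 8 of GRCm38 in 2 clusters. The Ces1 and Ces5 cluster, on the minus strand from 93020214 to 93535707, holds 9 genes with 5 of the selected ones. The Ces2, Ces3 and Ces4 cluster, on the plus strand from 104734003 to 105150109, holds 11 genes with the other 5. No other annotated gene overlapped a selected gene, which matters because reads were counted without strand. RefSeq promoters (build GRCm38.p6) were found for 7 of the 10 genes and not for Ces1d, Ces1f and Ces3a. The 150 bases before the start are shown for 3 genes that kept 47.3% to 66.3% of their liver level in spheroids in vitro (Ces1c, Ces2a and Ces2e), for Ces2c, and for 2 genes whose level in explants after subtraction of iris was 21.6% and 30.6% of that in liver (Ces3b and Ces1e). The promoter of Ces1g was searched but is not shown. Capitals mark matches to any of the motifs searched.
Ces1c promoter, chr8:93131284-93131433, minus strand: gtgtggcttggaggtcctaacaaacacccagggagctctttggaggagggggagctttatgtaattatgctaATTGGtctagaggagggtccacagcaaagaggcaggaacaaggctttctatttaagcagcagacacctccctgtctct
Ces2a promoter, chr8:104733853-104734002, plus strand: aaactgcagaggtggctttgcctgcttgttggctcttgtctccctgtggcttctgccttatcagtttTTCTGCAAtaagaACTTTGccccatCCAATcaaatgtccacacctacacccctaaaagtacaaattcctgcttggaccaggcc
Ces2e promoter, chr8:104926110-104926259, plus strand: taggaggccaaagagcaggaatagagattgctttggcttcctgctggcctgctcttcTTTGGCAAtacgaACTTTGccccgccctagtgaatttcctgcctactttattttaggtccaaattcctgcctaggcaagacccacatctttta
Ces2c promoter, chr8:104846918-104847067, plus strand: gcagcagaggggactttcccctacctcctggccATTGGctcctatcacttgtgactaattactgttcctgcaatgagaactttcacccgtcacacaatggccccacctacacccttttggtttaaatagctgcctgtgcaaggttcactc
Ces1e promoter, chr8:93229620-93229769, minus strand: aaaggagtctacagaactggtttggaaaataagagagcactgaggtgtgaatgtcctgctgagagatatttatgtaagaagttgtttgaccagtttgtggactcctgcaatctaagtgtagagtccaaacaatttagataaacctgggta
Ces3b promoter, chr8:105083605-105083754, plus strand: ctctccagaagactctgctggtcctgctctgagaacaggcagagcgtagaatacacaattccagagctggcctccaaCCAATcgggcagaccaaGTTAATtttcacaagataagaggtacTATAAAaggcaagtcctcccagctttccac

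In all, 6 motifs were searched on both strands of the 250 bases before the start, and none of the words holds another. Among all 32851 RefSeq promoters of the same length, the TATA box TATAAA was found in 12.4%, the CCAAT box CCAAT in 33.8%, the HNF1 half-site GTTAAT in 6.43%, the HNF4 half-site CAAAGT in 12.6%, the C/EBP word TTGCNNAA in 9.56% and the nuclear receptor half-site AGGTCA in 14%. Ces2a and Ces2e each held the C/EBP word and the HNF4 half-site on the minus strand with 5 bases between them. In Ces2a they lay 76 to 83 and 65 to 70 bases before the start, and in Ces2e 86 to 93 and 75 to 80 bases. Ces3b held a TATA box at 25 to 30 bases, an HNF1 half-site at 51 to 56 bases and a CCAAT box at 69 to 73 bases. A TATA box was also found in Ces1g, on the minus strand at 21 to 26 bases. The C/EBP word was also found in Ces1c at 232 to 239 bases, and again in Ces2a at 201 to 208. Ces2a also held the nuclear receptor half-site, at 221 to 226 bases. A CCAAT box was also found in Ces1c, Ces1g, Ces2a and Ces2c, and in Ces1e 0 of the 6 motifs matched. Such matches describe letters and not bound sites.

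The total per sample was 2718518 to 6789648 counts, and the 3 technical libraries of a sample differed in the summed level of the 10 genes by a coefficient of variation of 0.43% to 15.1% (median 3.78%). The hepatocyte markers, among them Alb, Apob and Hnf4a, were detected in all groups and summed to 13426 to 14801 TPM in livers, 14055 to 17052 in hepatocyte preparations, 13559 to 14888 in spheroids, 5604 to 7715 in explants and 1670 to 2027 in irises. Iris accounted for 59% to 82% of an explant by the shares that the deposited tables contain. The authors' formula for subtracting it was applied to all 5 explants, since the deposited column of explant 4 departs from that formula, and the results are called corrected explants.

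In livers, the 10 genes together took 5733 ± 1118 TPM (SD, n = 3), which was 0.573% of all transcripts. The leading genes were at similar levels, namely the triacylglycerol hydrolase Ces1d at 996 ± 340 TPM, Ces3a at 984 ± 295 and the plasma carboxylesterase Ces1c at 942 ± 97.3 (SD, n = 3 for each). The ranges of these 3 overlapped, whereas Ces1c and the next gene, Ces2a at 675 ± 56.0 TPM, had separate ranges. Ces1f (543 ± 157 TPM), Ces1g (441 ± 41), Ces2e (424 ± 52.1), Ces1e (353 ± 127) and Ces3b (332 ± 125) followed, each overlapping its neighbor in the order. Ces2c stood apart at 42.5 ± 11.3 TPM.

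**Figure D1:**
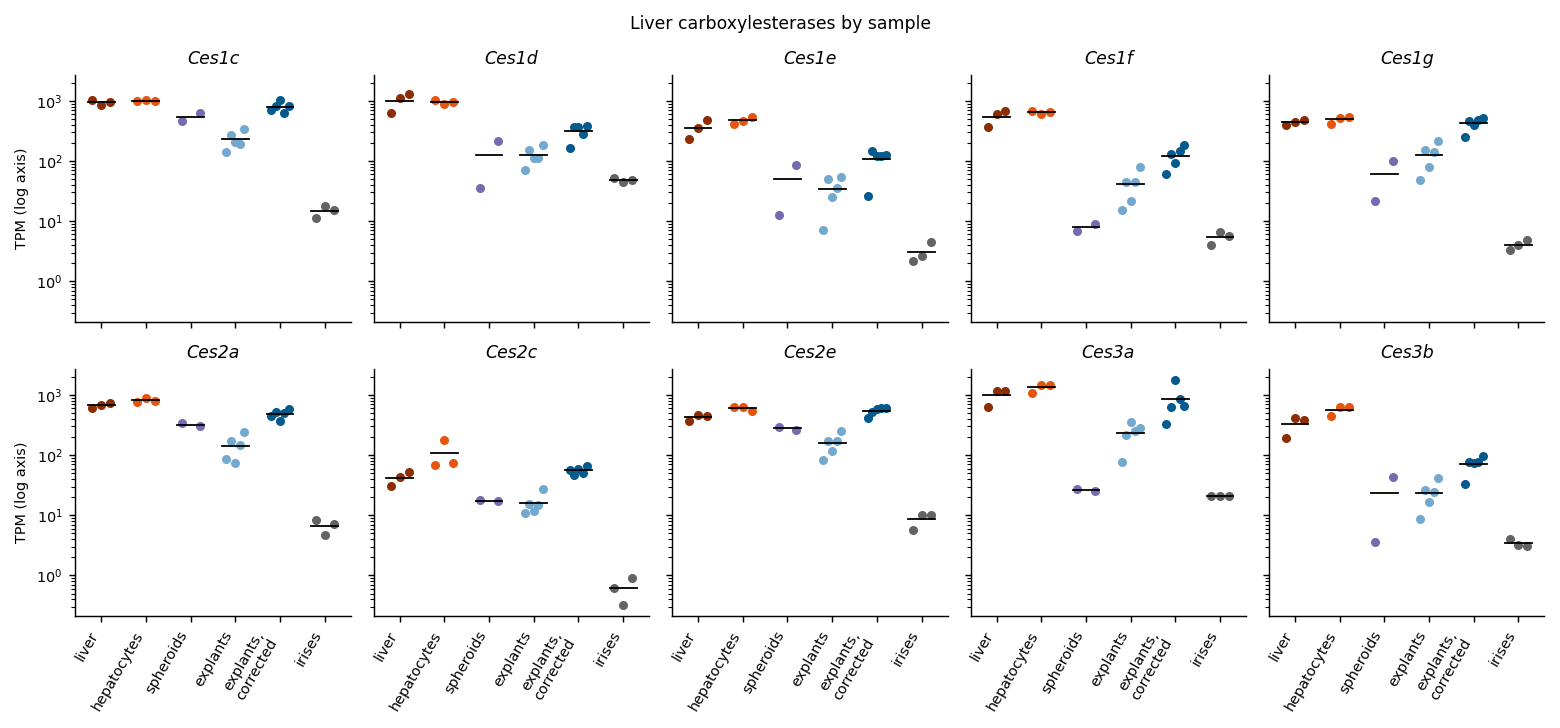
Level of each gene in every sample, in TPM on a logarithmic axis, for livers, hepatocyte preparations, spheroids in vitro, explants before and after subtraction of iris, and irises (points, samples; lines, group means). In Ces1f and Ces3a the spheroids lie near the irises, and in Ces1c, Ces2a and Ces2e they lie near the livers.

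Freshly isolated hepatocytes carried these transcripts at mean levels above those of whole liver, except for Ces1d at 96.4% of the liver mean. The sum was 7018 ± 425 TPM (SD, n = 3). The ranges of 6 genes overlapped between the groups, and Ces2a, Ces2c, Ces2e and Ces3b were higher in all preparations than in any liver. Such ranges were not compared for all genes. Ces2e was at 621, 644 and 549 TPM in preparations and 364, 460 and 447 in livers. In the count model its log2 fold change was 0.65 (standard error 0.14). Over the 10 genes the log2 fold changes ran from 0.08 (standard error 0.25) for Ces1d to 1.46 (standard error 0.38) for Ces2c. Of the 10, 0 were called at an adjusted p under 0.05 with an absolute log2 fold change over 1, against 2.72% of 12236 genes tested (0.409% higher and 2.31% lower). Leaving out single samples or changing the settings turned the sign of Ces1d only, to −0.20 without liver 1 and −0.03 with scaling by library size alone.

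In spheroids kept in vitro all 10 genes were lower than in any hepatocyte preparation and any liver, but by very different amounts, from 66.3% of the liver mean for Ces2e to 1.45% for Ces1f. The sum was 1454 ± 319 TPM (SD, n = 2). Of the 10, 10 were called lower than in hepatocyte preparations, against 9.11% of 12247 genes tested (8.13% were higher, 17.2% in either direction), and since the genes had been chosen on these levels the count is a description.

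Among the Ces1 genes, the secreted Ces1c stood closest to its level in hepatocyte preparations. It was at 467 and 624 TPM in spheroids, 978, 1021 and 1004 in hepatocyte preparations, and 1029, 837 and 961 in livers. Its log2 fold change against the preparations was −1.19 (standard error 0.25). Ces1f, the second triacylglycerol hydrolase, was at the other end of the range. It was at 6.71 and 9.06 TPM in spheroids, 678, 607 and 646 in hepatocyte preparations, and 366, 596 and 666 in livers. That was a log2 fold change of −6.67 (standard error 0.31), or 102-fold lower than in the preparations in the count model, and both spheroid samples stood just above the irises (4.02 to 6.64 TPM).

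Ces1d, Ces1e and Ces1g lay between these extremes, and in each of them the pair of spheroid samples differed. Ces1d was at 35.3 TPM in spheroids 1 and 211 in spheroids 2, against 1042, 869 and 971 in hepatocyte preparations. Ces1e, egasyn, was at 12.5 and 86.4 TPM, against 415, 457 and 546. Ces1g was at 21.3 and 98.4 TPM, against 413, 517 and 542. All 3 were lower in both spheroid samples than in any preparation, with log2 fold changes of −3.22 (standard error 0.72), −3.52 (0.74) and −3.31 (0.63). Without spheroids 2 these were −5.22, −5.69 and −4.98, and without spheroids 1 they were −2.40, −2.67 and −2.54.

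The Ces2 genes were at similar levels in both spheroid samples. Ces2a, the acylglycerol hydrolase, was at 337 and 302 TPM in spheroids and 774, 892 and 810 in hepatocyte preparations (log2 fold change −1.70, standard error 0.20). Ces2e was at 300 and 262 TPM in spheroids (log2 fold change −1.44, standard error 0.19). Ces2c was at 17.8 and 17.2 TPM in spheroids and 67.5, 179 and 74.4 in the preparations (log2 fold change −2.94, standard error 0.47). Spheroids held 41% of the liver level of Ces2c, 47.3% of that of Ces2a and 66.3% of that of Ces2e, and the spheroid samples differed by a factor of 1.03 to 1.14 within each gene. Hepatocyte preparation 2 set a part of the log2 fold change of Ces2c, which was −2.34 without it.

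Both Ces3 genes were among the lowest relative to hepatocyte preparations. Ces3a was at 27.8 and 25.1 TPM in spheroids, 1085, 1475 and 1452 in hepatocyte preparations, and 644, 1149 and 1161 in livers. Its log2 fold change against the preparations was −5.99 (standard error 0.31), or 63.6-fold lower. Ces3b was at 3.56 and 43.9 TPM in spheroids and 453, 628 and 642 in hepatocyte preparations (log2 fold change −4.86, standard error 0.90). The gene was 12.4 times higher in spheroids 2 than in spheroids 1, and its log2 fold change was −7.77 without spheroids 2 and −3.92 without spheroids 1.

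The mixture of carboxylesterase transcripts changed accordingly. The Ces3 genes made up 22.6% ± 3.65 of the sum in livers (SD, n = 3), 27.1% ± 3.08 in hepatocyte preparations (SD, n = 3) and 3.33% ± 1.10 in spheroids (SD, n = 2). The Ces2 genes took 20.2% ± 2.10, 21.9% ± 1.91 and 43.9% ± 13.2 in the same groups. Ces1c alone was 38% and 37.1% of the sum in the spheroid samples and 13.8% to 23% in livers. In irises Ces1d was the largest component at 41.8% ± 4.18 (SD, n = 3) of a sum of 116 ± 3.88 TPM.

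**Figure D2:**
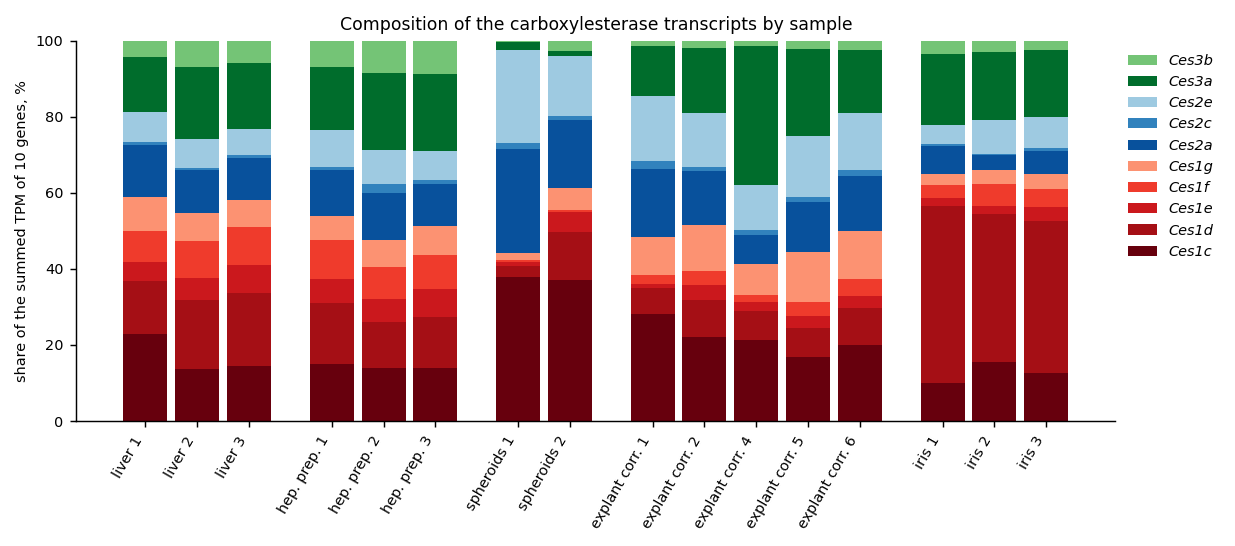
Share of each gene in the summed TPM of the 10 carboxylesterases, in percent, with 1 bar per sample (explants after subtraction of iris). The green Ces3 share is 18.6% to 25.8% in livers, 2.56% to 4.11% in spheroids and 14.6% to 37.9% in corrected explants, where explant 4 has the highest share.

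After 2 months on the iris, carboxylesterase transcripts stood far above the iris background. All 10 genes were higher in every explant than in any iris, a comparison of ranges that was not made for all genes. Of the 10, 10 were called higher, against 6.16% of 16764 genes tested (0.316% were lower, 6.47% in either direction). Ces1g had the largest log2 fold change, 5.08 (standard error 0.63). It was at 47.9, 150, 79.1, 139 and 212 TPM in explants 1, 2, 4, 5 and 6 and at 3.27, 4.03 and 4.83 in irises. Ces1d had the smallest, 1.5 (standard error 0.32), at 69.6, 151, 110, 114 and 186 TPM in explants and 52.9, 44.7 and 48.1 in irises. Ces2c rested on 6 counts over the irises and 326 over the explants, a ratio of 26.1 per total count with an exact 95% interval of 11.8 to 71.5, which covers counting error only. For the other genes the log2 fold changes lay between 2.91 for Ces3b and 4.54 for Ces2a.

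With the iris share subtracted, the 10 genes split into 2 sets, described as seen. Ces2c, Ces2e, Ces1g, Ces3a, Ces1c and Ces2a had means of 71.7% to 132% of the liver mean, whereas Ces1d, Ces1e, Ces1f and Ces3b had 21.6% to 31.5%. The ranges of 5 genes overlapped those of the livers, and 5 (the latter 4 and Ces2a) were lower in every explant than in any liver. The share of all genes with separate ranges was not computed here either. In limma on log2(TPM + 1), a scale that understates the differences of low genes, Ces1d, Ces1f and Ces3b were called lower, 3 of 10 against 3.01% of 21002 genes (11.8% were higher, 14.8% in either direction). The median over all genes in this comparison was 0.61.

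**Figure D3:**
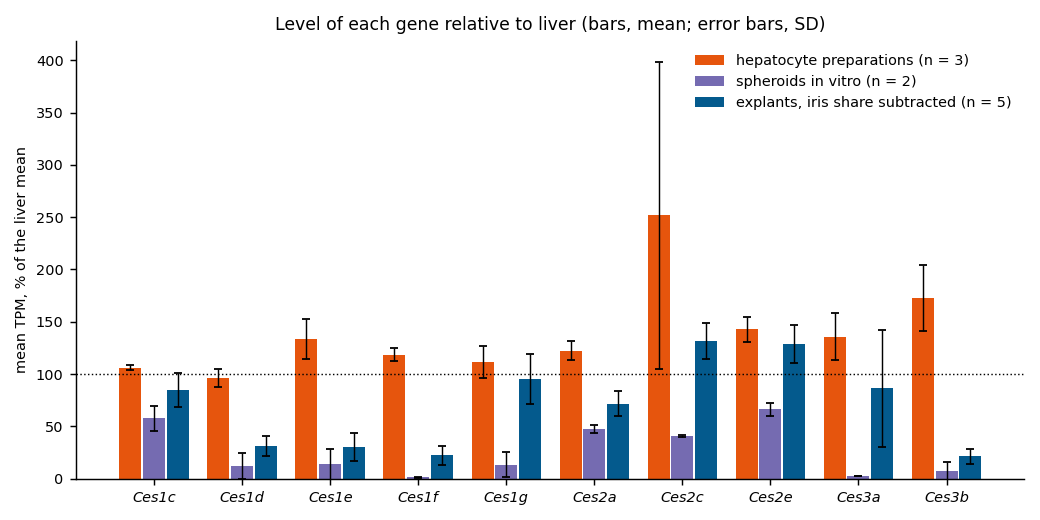
Mean level of each gene as a percentage of the liver mean, from TPM, in hepatocyte preparations (n = 3), spheroids in vitro (n = 2) and explants after subtraction of iris (n = 5). Bars are means and error bars SD. Corrected explants reach 71.7% or more in 6 genes and 31.5% or less in 4, and spheroids are at 14% or less in Ces1d, Ces1e, Ces1f, Ces1g, Ces3a and Ces3b.

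In the first set, the plasma carboxylesterase Ces1c was at 699, 827, 1036, 635 and 811 TPM in corrected explants 1, 2, 4, 5 and 6, overlapping the livers (log2 difference −0.25, standard error 0.17). Ces1g was at 248, 461, 399, 486 and 512 TPM (log2 difference −0.11, standard error 0.24). Ces2e was at 420, 525, 583, 600 and 603 TPM, and 4 of the 5 values were above every liver (log2 difference 0.36, standard error 0.17). Ces2c was at 57.0, 46.6, 59.9, 51.2 and 65.4 TPM against 30.8, 43.6 and 53.2 in livers (log2 difference 0.41, standard error 0.28). Ces2a was at 441, 525, 369, 501 and 581 TPM, below all livers (log2 difference −0.49, standard error 0.17). None of these 5 was called.

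Ces3a varied widely among explants. It was at 328, 638, 1776, 860 and 664 TPM in corrected explants 1, 2, 4, 5 and 6, a range 5.41 times wide that reached from below the lowest liver to above the highest (log2 difference −0.37, standard error 0.47). Before correction explant 4 was also the highest, at 354 TPM against 76.2 to 284 in the others. The closely related Ces3b did not follow it, at 32.7, 75.6, 73.5, 78.2 and 98.7 TPM after correction.

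In the second set every explant was below every liver. Ces1d was at 165, 367, 371, 281 and 384 TPM against 616, 1099 and 1273 in livers (log2 difference −1.66, standard error 0.33). Ces1f was at 59.8, 131, 90.9, 144 and 186 TPM against 366, 596 and 666 (log2 difference −2.20, standard error 0.38). Both triacylglycerol hydrolases were thus in this set. Ces1e was at 26, 148, 121, 119 and 126 TPM against 229, 347 and 483 (log2 difference −1.84, standard error 0.55), and Ces3b had a log2 difference of −2.20 (standard error 0.40). Explant 1, with the largest iris share, was the lowest in these 4 genes and also in Ces1g, Ces2e and Ces3a.

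Corrected explants were higher than spheroids in vitro without overlap in 7 genes, and the ranges of Ces1d, Ces1e and Ces3b overlapped. The share of all genes with such separate ranges was not computed, so the count is a description. In limma 4 of 10 were called higher, against 5% of 21217 genes (0.957% were lower, 5.95% in either direction). Ces3a had the largest log2 difference, 4.74 (standard error 0.54), followed by Ces1f with 3.70 (0.48), Ces1g with 3.12 (0.54) and Ces2c with 1.62 (0.35). Ces1c (0.55), Ces2a (0.58) and Ces2e (0.95) were not called, with standard errors of 0.21 to 0.22. The pair of spheroid samples decided the values of 4 genes: without spheroids 1 the log2 difference was 0.50 for Ces1d, 0.11 for Ces1e, 2.04 for Ces1g and 0.61 for Ces3b, and without spheroids 2 it was 3.05, 2.80, 4.2 and 3.91. The median over all genes was 0.54 in this comparison. The comparisons with livers and with spheroids share the same 5 explants.

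Other hepatocyte genes gave a scale for these differences. Outside the family, 213 genes with at least 50 TPM in livers, under 2% of that in irises and at least 0.5 of it in hepatocyte preparations were used, of at least 500 bases and under 0.4 counts per base and library. Of the carboxylesterases, only Ces1e, Ces1f, Ces1g, Ces2a and Ces3b met all these limits. In livers Ces1c, Ces1d and Ces3a were above the last, at 0.458, 0.486 and 0.480, and Ces2c was under the first, at 42.5 TPM. Ces1d, Ces2e and Ces3a were above the limit for irises, at 4.88%, 2.06% and 2.13%. The median log2 ratio of mean TPM + 1 of the 213 genes was −0.94 from hepatocyte preparations to spheroids. Of the 10 carboxylesterases, 1 (Ces1c, at −0.88) was above that median. Only 6 of the 213 genes were lower than Ces1f (−6.18) and 9 were lower than Ces3a (−5.61). From livers to corrected explants the median was −0.73. Here 6 carboxylesterases were above the median, with Ces2c (0.39) above 95.8% of the 213 genes, Ces2e (0.37) above 95.3% and Ces1g (−0.07) above 88.3%. Scaled to these genes, the limma differences from livers of Ces1c (0.48), Ces1g (0.62), Ces2a (0.23) and Ces3a (0.35) turned positive, and those of Ces1d (−0.94), Ces1e (−1.12), Ces1f (−1.47) and Ces3b (−1.47) stayed negative. Ces1d, called lower without this scaling, was then inside the limit of 1. In ratios of means, Ces1d (−1.66), Ces1e (−1.70), Ces1f (−2.14) and Ces3b (−2.20) were above 15.5%, 15%, 11.3% and 9.86% of them. From spheroids to corrected explants the median was 0.12, and all 10 carboxylesterases were above it, Ces3a (4.96) being above 98.6%.

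**Figure D4:**
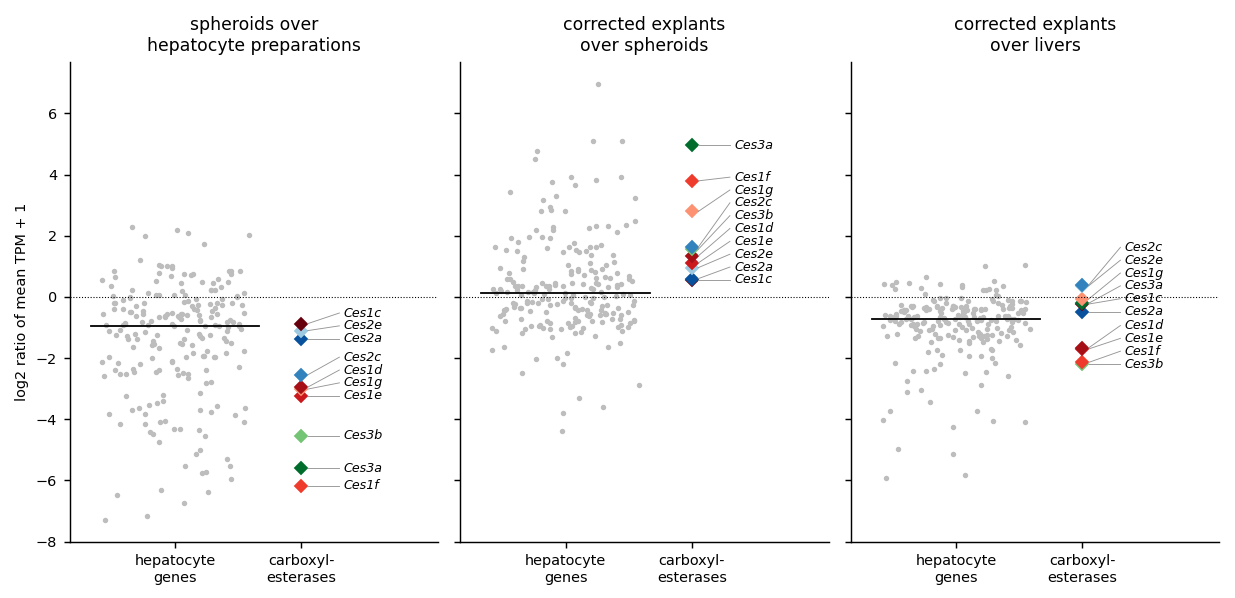
Log2 ratio of mean TPM + 1 for 213 hepatocyte genes (gray points, horizontal line at their median) and the 10 carboxylesterases (diamonds), for spheroids over hepatocyte preparations, corrected explants over spheroids and corrected explants over livers. The carboxylesterases run from −6.18 to −0.88, from 0.56 to 4.96 and from −2.20 to 0.39, around gray medians of −0.94, 0.12 and −0.73.

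The samples of a group did not vary as 1 unit. Liver 1 was the lowest liver in 9 of the 10 genes, at 47.1% (Ces3b) to 87.2% (Ces2a) of the mean of livers 2 and 3, and the highest in Ces1c at 114%. Ces1b, a close relative of Ces1c, was also highest there, at 277 TPM against 87.8 and 144. Other genes set liver 1 apart as well, chosen here after their values were seen. Hsd3b5 was at 2.70 TPM in liver 1 against 300 and 401, Elovl3 at 37.3 against 366 and 371, and Cyp2a4 at 248 against 0.38 and 1.64. The Y-linked Ddx3y was at 35 to 86 TPM in all 16 samples. Spheroids and corrected explants had Hsd3b5 at 3.44 to 5.20 and 0.44 to 6.10 TPM and Elovl3 at 9.16 to 9.70 and 0 to 38.7. Their Cyp2a4 was at 57.7 to 70.8 and 33.9 to 119 TPM. Hepatocyte preparations had Hsd3b5 at 267 to 790 TPM, Elovl3 at 501 to 1545 and Cyp2a4 at 0 to 2.85. The part of these differences in the carboxylesterase values was not tested. Without liver 1 the log2 difference of corrected explants from livers was −1.98 for Ces1d, −2.12 for Ces1e, −2.46 for Ces1f, −2.56 for Ces3b and −0.65 for Ces3a.

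In hepatocyte preparation 2, Ces2c was at 179 TPM against 67.5 and 74.4, and the low family genes Ces2b and Ces4a were also highest there, at 15.6 and 19.9 TPM. Enterocytes are another cell type that uses Ces2 genes. The enterocyte markers Alpi and Lct were at 0 in all preparations, Sis and Cdx2 were at no more than 0.12 and 0.35 TPM, and Fabp2, which hepatocytes also express, made up most of the list's sum of 540 to 620 TPM in preparations and 440 to 606 in livers. Stellate cell, cholangiocyte and macrophage markers moved with the isolation of hepatocytes, with 4 of 6, 3 of 4 and 1 of 5 tested lower in preparations than in livers. Their part in the higher carboxylesterase levels of the preparations was not tested.

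In irises, Ces1d was at 48.6 ± 4.14 TPM (SD, n = 3), 4.88% of its liver level, while the other 9 genes were at 0.875% to 2.13% of theirs. Ces1d and Ces1f are also genes of adipocytes. The 6 adipocyte markers summed to 0.84 to 1.72 TPM in irises, with 3 of them at 0, while the lipid droplet genes Plin4 and Cidea, picked after their values were seen, were at 50.8 ± 6.82 and 14 ± 4.56 TPM (SD, n = 3). The part of adipocytes in the iris values was not tested. Ces5a, a family gene outside the selection, was at 46 ± 8.55 TPM in irises (SD, n = 3), at 29 to 48.8 in explants, at 0 in all livers and at no more than 1.01 in the other liver cell samples. In the count model it differed little between explants and irises (−0.16 on the log2 scale, standard error 0.17, not called).

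In liver and in cells derived from it, most other genes of the family were low. Ces1b was at 170 ± 97.3 TPM in livers, 22.1 ± 11 in spheroids and 63.2 ± 17.7 in corrected explants, and Ces2g at 87.3 ± 7.64, 66.8 ± 5.24 and 122 ± 47 (SD, n = 3, 2 and 5). Ces1a, Ces1h, Ces2d-ps and Ces2h stayed at 2.46 TPM or less in every liver, hepatocyte preparation and spheroid sample. Of the 10, 2 of the 4 tested were called higher in explants than in irises (Ces2g, log2 fold change 4.21, and Ces1b, 3.83), and 3 of the 4 tested were called lower in spheroids than in hepatocyte preparations (Ces2b −3.53, Ces1b −3.09 and Ces2g −1.01). In the remaining comparisons 0 were called.

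Ester hydrolases outside the family moved in both directions. Of 14 such genes, 6 were lower and 1 was higher in spheroids than in hepatocyte preparations by edgeR's quasi-likelihood test with Benjamini-Hochberg adjustment, with a median log2 fold change of −0.14 against 0.01 over all genes. Pon1, the serum paraoxonase, was at 17.1 to 72.8 TPM in spheroids and 696 to 927 in preparations (log2 fold change −4.47, standard error 0.65, adjusted p = 0.00298). Gusb and Aadac were picked here after their values were seen. Gusb, the beta-glucuronidase that egasyn binds, was the gene that rose (1.44, standard error 0.24, adjusted p = 0.00550), at 91.1 to 114 TPM against 23.3 to 42.2. Aadac, a lipase-like deacetylase of the same compartment, was lower in spheroids, at 682 to 796 TPM against 1285 to 1347 (log2 fold change −1.15, standard error 0.22, adjusted p = 0.00890), and was at 897 to 1180 in corrected explants. In corrected explants 2 of the 14 were lower than in livers by limma, Afmid (log2 difference −1.92, adjusted p = 0.00392) and Ephx2 (−1.07, adjusted p = 0.0177). Against spheroids Pon1 was higher (3.99, adjusted p = 0.00480) and Ephx1 lower (−1.13, adjusted p = 0.0217). Against irises, Aadac, Pon1 and Faah were higher in explants.

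Neutral lipid hydrolases were lower in spheroids in part. Of 13 tested, 5 were lower and 0 higher than in hepatocyte preparations (median log2 fold change −0.65), among them the hepatic lipase gene Lipc (−2.36, standard error 0.44, adjusted p = 0.00768), the endothelial lipase gene Lipg (−4.10, adjusted p = 0.00914) and the lipolysis inhibitor G0s2 (−1.56, adjusted p = 0.00910), of which Lipg and G0s2 were not called without spheroids 1. In corrected explants 1 of 13, Lpl, was higher than in livers (2.80, adjusted p = 0.00969) and 0 were lower. Genes of lipid droplets and very low density lipoprotein had 2 higher and 1 lower of 13 in spheroids, namely Hilpda (1.94), Plin4 (1.31) and Fitm1 (−4.64), with a median of 0.15. In corrected explants 1 of 14 was lower than in livers, Plin5 (−1.21, adjusted p = 0.0496, and 0.110 to 0.183 without any single liver). Of the receptors and folding enzymes of the endoplasmic reticulum, which serve the compartment of these esterases, 0 were called in any of the 5 comparisons.

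Regulators known to act on carboxylesterase genes changed in part. In spheroids 5 of 12 were lower and 1 higher than in hepatocyte preparations (median log2 fold change −0.90). Cebpa was at 23.8 to 35.8 TPM in spheroids and 123 to 200 in preparations (log2 fold change −2.70, standard error 0.26, adjusted p = 0.000668 by edgeR). The xenobiotic receptor gene Nr1i3 (−1.43, adjusted p = 0.0187) and Ppara (−1.35, adjusted p = 0.0312) were also lower, and Nfe2l2, the regulator of antioxidant genes, was higher (1.32, adjusted p = 0.00431). Without spheroids 1, Nr1i3 (−0.97) and Ppara (−0.93) were not called. Hnf4a was at 203 to 229 TPM in spheroids and 159 to 233 in preparations, and the pregnane X receptor gene Nr1i2 at 110 to 129 and 83.8 to 121. In corrected explants 4 of 12 were lower than in livers by limma, Ppara (−2.23, adjusted p = 0.0134), Cebpa (−2.04, adjusted p = 0.00302), Rxra (−1.97, adjusted p = 0.00278) and Nr3c1 (−1.36, adjusted p = 0.0315), and 0 of 12 were called against spheroids. Hnf4a, not called, was at 96.2 to 139 TPM in corrected explants, below both spheroid samples. The median of the list was −0.87 against livers, beside 0.61 over all genes.

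In explants against irises, 7 of 14 lipid droplet genes, 6 of 12 regulators, 2 of 13 neutral lipid hydrolases and 10 of 10 hepatocyte markers were higher by edgeR and 0 were lower. Cell markers moved with several of the comparisons. The 10 hepatocyte markers had 0 calls in spheroids against preparations and in corrected explants against livers or spheroids, with medians of −0.43, −0.03 and 0.36. Their sum in corrected explants, 15798 to 22735 TPM, was above that of every liver, whereas the median of the 213 hepatocyte genes was lower than in livers. All 6 macrophage markers were higher in corrected explants than in livers (summed level 1772 to 4150 TPM against 300 to 757), 4 of 6 sinusoidal endothelial markers were lower (30.7 to 152 against 278 to 399), and iris markers remained after subtraction (188 to 1373 against 89.5 to 96.5). In spheroids, Kupffer cell markers summed to 491 to 539 TPM against 115 to 220 in preparations. The part of other cells in the carboxylesterase values was not tested.

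Over the 16 samples, the level of each gene was close to that of some other liver gene. Among 8516 genes of at least 10 TPM in livers, the highest Pearson correlation of log2(TPM + 1) was 0.997 for Ces1c with Plg, 0.996 for Ces2a with Gjb1, 0.995 for Ces2e with Hsd17b2 and 0.994 for Ces3a with Rgn. It was 0.989 for Ces1e with Acaa1b, 0.988 for Ces1f with Ugt3a1, 0.987 for Ces1g with Nat8f2, 0.986 for Ces3b with Dlec1, 0.984 for Ces1d with Gm16157 and 0.976 for Ces2c with C8b. The 16 points come from 5 groups and share libraries and iris content, so these values describe group levels.

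Near-identical copies limit some of these values, since reads that map to several places were not counted. The open reading frames of Ces3a and Ces3b were 95.3% identical at the nucleotide level. Those of the selected Ces1 genes were 74.5% to 81.6% identical, those of the selected Ces2 genes 83.0% to 84.0%, and between subfamilies 61.3% to 63.8%. Of the genes outside the selection, Ces1b was 90.9% identical to Ces1c, and Ces2g was 85.3% identical to Ces2c. Of the transcript words of 50 bases, 36.1% in Ces2c, 26.2% in Ces3b, 25.6% in Ces3a, 17.3% in Ces2a and 13% in Ces1c also occurred in another gene, and 0.90% to 3.30% in the others. Levels of the former 5 are therefore more uncertain, and whether the missing part was alike in all samples was not tested.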

How the data were processed

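RNA of 16 samples was sequenced by Smart-seq3 as 48 libraries. The authors aligned reads with TopHat2 to mm10, removed duplicates by molecular identifier, and deposited counts per gene from featureCounts 1.4.6-p5 (exons, unstranded, reads with several locations not counted), counts summed over the 3 libraries of a sample, and TPM. The deposited corrected values of other scale (20702 genes) subtract iris from explant TPM and divide by 1 minus the iris share. That formula held for 17.6% of genes in the deposited column of explant 4, so it was reapplied here to all explants.

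Counts were tested with edgeR 4.0.16 (TMM, quasi-likelihood), and corrected TPM with limma 3.58.1 on log2(TPM + 1) for genes with a mean of at least 1 TPM, in R 4.3.3, each fit holding only the groups compared. Calls needed a Benjamini-Hochberg adjusted p under 0.05 over all genes tested and an absolute log2 fold change over 1. Both fits were tested on simulated counts, which for limma were turned into TPM with no iris mixed in or subtracted. The subtraction of iris was therefore not covered by that test. The ERCC spike-ins, 92 features with 418 counts, were left out. Counting limits used 95% exact intervals, which cover counting error only. Levels, ranks and correlations were computed in Python 3.11.15 (pandas 2.3.3, numpy 2.4.6, scipy 1.17.1). Of 14 other gene lists, at most 4 called genes per list and comparison, those with the largest change, are named, and for each carboxylesterase the most similar genes. The carboxylesterases and all lists were chosen with earlier results of these data known. Pooled over the 5 comparisons, deviations of same-numbered samples from their group means had correlations of −0.10 to 0.16, and other pairs −0.23 to 0.22. In spheroids against preparations the same-numbered pairs had the highest correlations, 0.09 and 0.12. With 2 spheroid samples the deviations mirror each other, so these values could not settle whether samples were paired. The main fits took no pairs. On the samples that share numbers, a replicate block gave more calls in each comparison than the same samples without it. Next to the main fits over all samples, it gave more calls only in hepatocyte preparations against livers. Alternatives were other scalings, filters, pseudocounts and tools (limma-voom, DESeq2 1.42.0), other iris shares, a replicate block and leaving out each sample.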

Additional observations from a re-analysis of the deposited data

Results flagged for a closer look

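In 2 of the 20 sets of 5 explant values examined (the 10 genes before and after subtraction of iris), 1 explant lay far from the other 4, with a gap over range above the critical value of 0.71. Chance gives such a gap in about 1 in 20 groups. Ces2c was highest in explant 6, at 27.2 TPM before correction, against 15.3 TPM in the next explant and 10.8 in the lowest. Ces1e was lowest in explant 1, at 26 TPM after correction, against 119 TPM in the next explant and 148 in the highest. Explant 1 had the largest iris share, 82%, and explant 6 the smallest, 59%, and the part of the iris share in these values was not tested.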

How the results depend on the processing

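Signs of the 10 carboxylesterases did not change in 168 alternative values for explants against irises and 140 for spheroids against hepatocyte preparations. They changed in 2 of 140 for hepatocyte preparations against livers (Ces1d), in 8 of 170 for corrected explants against livers (Ces1c, Ces1g, Ces2a, Ces2c, Ces2e and Ces3a), and in 5 of 160 against spheroids, all with TPM before correction, where Ces1c was at −1.29, Ces2a at −1.27, Ces2e at −0.90, Ces1e at −0.23 and Ces2c at −0.19. Nr3c1 against livers was at 0.074 with TPM before correction. Of 102 named results of other genes, 27 kept direction and call throughout.

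Counts of genes called depended more on the settings, and the cause was not tested. Explants against irises had 1085 calls, 644 with at least 10 counts in every sample, 583 by limma-voom, and 583 to 1259 without single samples (583, 630 and 603 without irises 1, 2 and 3). Hepatocyte preparations against livers had 333 calls, 1205 with no filter, 169 with at least 10 counts, 647 by DESeq2, 20 by limma-voom, 1140 with all 5 groups in 1 fit, and 8 to 448 without single samples (143, 20 and 99 without livers 1, 2 and 3, and 15 and 8 without hepatocyte preparations 2 and 3). Spheroids against preparations had 2112 calls, and 1466 to 1994 without single samples. When libraries were scaled only by their totals, 1531 genes were higher and 808 lower, against 996 and 1116, and the median of all genes was 0.27. Corrected explants against livers had 3104 calls, 1431 with the deposited values, 9896 before correction, 5504 scaled to hepatocyte genes, and 1142 to 4091 without single samples (1837, 1142 and 1153 without livers 1, 2 and 3). Against spheroids there were 1263 calls, 488 with the deposited values, 8622 before correction, and 165 to 1455 without single samples (198 and 165 without spheroids 1 and 2, 798 without explant 5).

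With a replicate block the counts were 797, 408, 1981, 186 and 539 in the same order. The samples that share numbers, a choice made after seeing the data, gave 551 calls without a block for explants against irises. They gave 1599 for spheroids against preparations. By limma they gave 0 for corrected explants against livers (5010 genes at an unadjusted p under 0.05) and 283 against spheroids. In hepatocyte preparations against livers all samples share numbers, with 333 calls without a block. The block thus raised the count in each comparison. Scaled as CPM, 20 of 40 carboxylesterase percentages of the liver level moved by more than the spread between replicates. Ces2c in irises, at 6 counts, was the level most limited by depth.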
